A study of Mus musculus with 24 samples.

Results

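The slow and cardiac genes of the sarcomere, the contractile unit of striated muscle, were examined in 6 organs of mice that lack Nur77. The list of 10 genes was chosen by isoform, with earlier ratios from these arrays in view: Myh7, Myh6, Myl2, Myl3, Mybpc1, Tnnc1, Tnni1, Tnnt1, Myoz2 and Atp2a2. By the gene symbol of the platform annotation, 8 of them had a probe, 12 of the 20205 probes in all. Myh6 and Tnnt1 had no probe under their symbol and were not analysed. Probes of a gene were averaged, so the 8 genes are 8 of 16148 rows.

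Pooled RNA of Nur77-/- mice was set against pooled RNA of wild-type (Nur77+/+) mice on 2-colour cDNA arrays. The organs were brown adipose tissue, skeletal muscle (labelled skeleton muscle), testis, spleen, heart and lung, with 4 arrays each and 24 in all. Nur77 is the orphan nuclear receptor encoded by Nr4a1. In the design text the mutant pool holds 7 mice and the wild-type pool 7, while the labelling protocol speaks of 6 control animals. The sources used here name no strain, age or sex and do not say which part of Nr4a1 was disrupted. The mutant pool carried Cy5 on replicates 1 and 2 of each organ and Cy3 on replicates 3 and 4. The 4 arrays of an organ repeat 1 comparison between 2 pools, so their SD does not measure the spread between animals. It holds hybridisation error together with any difference between dye orientations and between whole arrays, and the number of arrays limits the precision.

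Values are read as log2 ratios of Nur77-/- over Nur77+/+. The base and the direction are likely, but no source used here states them, and every fold given here rests on that base. Arrays held from 13396 to 19455 values. Nr4a1, the targeted gene, was below 0 on 21 of 22 arrays, from -2.55 to 0.08 with a median of -0.73, under both dye orientations. Where its probe lies relative to the disruption is unknown, so this check is limited. Repeat arrays resembled each other little: Spearman rho across rows had a median of 0.102 for pairs of like dye orientation and -0.04 for dye-swapped pairs. These arrays give ratios and no levels, so the labelled organs could not be checked against their markers. A lower ratio can mean fewer muscle cells in an organ or less RNA in each cell, and these cannot be told apart in RNA of whole organs.

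Striated muscle contracts when myosin heads of the thick filament pull on actin of the thin filament, and calcium binding to the troponin complex permits it. Slow-twitch fibres and heart muscle share many isoforms of these proteins, while fast-twitch fibres use others from separate genes. In the mouse, adult ventricles express mostly the alpha myosin heavy chain (Myh6), and the beta chain (Myh7) marks slow skeletal fibres and the stressed or fetal heart. Nur77 is known in skeletal muscle as a regulator of glucose and energy metabolism, and it binds the DNA motif called NBRE.

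The genes were selected on earlier results of these same ratios, in which Myl2 was higher in lung, Myh7 in spleen and Mybpc1 in skeletal muscle. Their mutant over wild-type ratios are therefore described without a test. Of the 48 pairs of gene and organ, 42 were measured on 3 or 4 arrays. The ratio had the same sign on every array in 9 of the 42 pairs (21.4%), against 17.7% of all pairs of row and organ. In 30 of the 42 pairs the SD of the arrays was larger than the mean ratio. The adjusted threshold of 0.05 was passed by 1 of 7 genes in lung, where 0.0809% of all rows passed (0.00809% higher, 0.0728% lower), by 1 of 7 in spleen, where 1.53% passed (0.597% higher, 0.936% lower), and by 1 of 7 in skeletal muscle, where 5.58% passed (3.36% higher, 2.22% lower). These are the 3 pairs just named, which the choice of the list already used, and with array weights the spleen gene did not pass. In heart, testis and brown adipose tissue 0 members passed, as did 0% of all rows (limma). There 284, 491 and 102 rows had an unadjusted p under 0.05 (limma). The fit used 1 estimate of spread for all organs. The median SD of rows ran from 0.47 in brown adipose tissue to 1.19 in skeletal muscle. With array weights 19 rows passed in heart, 31 in spleen, 6 in testis, 196 in skeletal muscle and 6 in brown adipose tissue. The shares of rows that passed are therefore not read as differences between organs.

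RefSeq promoter windows (GRCm38.p6, 250 bases before to 50 after a transcript start) were found for 9 of the 10 genes, 12 windows in all, and none for Atp2a2. They were searched on both strands for the NBRE (AAAGGTCA), a TATA motif (TATAAA), the E-box of the myogenic factors (CANNTG), the MCAT motif of the TEAD factors (CATTCC), and the MEF2 and CArG motifs. The NBRE was in none of the 12 windows and in 1.51% of all 32851 windows. An E-box was in all 12 and in 72.3% of all windows. MCAT was in 4 of the 12 (14.7% of all windows), TATAAA in 3 (13.6%), MEF2 in 1 (0.557%) and CArG in 1 (1.63%). None of these TATA, MCAT, MEF2 and CArG matches shared bases with a match of another motif. The windows of the 3 genes with the ratios named above, and of Myoz2, whose ratios were split by dye in 4 of 6 organs, are shown 5′ to 3′ with every NBRE, TATA, MCAT, MEF2 and CArG match in capitals.
Myl2, chr5:122092939-122093238, plus strand: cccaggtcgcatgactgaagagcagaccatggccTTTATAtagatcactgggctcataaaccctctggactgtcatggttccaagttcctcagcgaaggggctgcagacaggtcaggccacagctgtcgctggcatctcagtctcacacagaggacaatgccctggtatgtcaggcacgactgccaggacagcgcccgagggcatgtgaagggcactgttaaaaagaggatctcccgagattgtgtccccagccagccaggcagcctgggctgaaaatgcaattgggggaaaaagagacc
Myh7, chr14:54994577-54994876, minus strand: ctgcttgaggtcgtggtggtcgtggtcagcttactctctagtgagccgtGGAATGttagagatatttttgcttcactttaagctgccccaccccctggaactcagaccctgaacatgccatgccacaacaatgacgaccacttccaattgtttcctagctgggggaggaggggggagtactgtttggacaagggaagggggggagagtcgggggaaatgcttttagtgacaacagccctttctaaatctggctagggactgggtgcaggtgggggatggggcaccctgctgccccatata
Mybpc1, chr10:88605103-88605402, minus strand: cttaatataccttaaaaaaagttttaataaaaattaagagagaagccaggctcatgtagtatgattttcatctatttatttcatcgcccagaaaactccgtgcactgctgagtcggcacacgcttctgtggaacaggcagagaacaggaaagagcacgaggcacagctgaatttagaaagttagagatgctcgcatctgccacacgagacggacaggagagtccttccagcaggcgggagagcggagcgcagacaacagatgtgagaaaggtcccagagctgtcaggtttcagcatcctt
Myoz2, chr3:123034938-123035237, minus strand: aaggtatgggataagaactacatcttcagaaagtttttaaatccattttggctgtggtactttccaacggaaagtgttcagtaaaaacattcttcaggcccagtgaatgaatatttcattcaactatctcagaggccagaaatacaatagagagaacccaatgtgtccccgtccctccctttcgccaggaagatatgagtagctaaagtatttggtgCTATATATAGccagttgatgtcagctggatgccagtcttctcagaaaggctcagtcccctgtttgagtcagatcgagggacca
The capitals are a TATA match on the opposite strand 216 bases before the start in Myl2, an MCAT match on the opposite strand 201 bases before the start in Myh7, and a MEF2 match 33 bases before the start in Myoz2. Mybpc1 has none in this window. Myl2 and Myh7 each have a further window, with no such match.

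Myh7, the beta myosin heavy chain that powers slow fibres, was higher in the mutant pool on all 4 spleen arrays. Its spleen ratios were 1.14 and 5.09 with the mutant pool in Cy5, against 5.44 and 2.81 in Cy3. All 4 lay above 0 and the dye orientations overlapped. The mean was 3.62 ± 2.02 (SD, n = 4), a 12.3-fold higher level in the mutant pool, and 2.25 with each array centred and scaled. In heart the ratios were -0.47, -0.12, -0.54 and -0.64 (replicates 1 to 4), all below 0, with a mean of -0.44 ± 0.23. Every heart value was below every spleen value. In lung the values ranged from -5.33 to 1.63 (mean -1.15 ± 2.95), and the lowest, on replicate 3, set the mean, which was 0.24 over the other 3 arrays. In skeletal muscle (-0.13 ± 0.84) and brown adipose tissue (-0.41 ± 0.58) the SD exceeded the mean. Testis had values of 2.02 and -2.33 on its Cy3 arrays, and on replicate 1 a value of 17.13 that was treated as not measured. In order, the organ means ran from spleen through skeletal muscle, brown adipose tissue and heart to lung, and apart from spleen each mean differed from its neighbour by less than the larger of their SDs. Myh7 and Myh6 are close relatives, and how far the Myh7 probe also bound Myh6 RNA was not tested.

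**Figure D1:**
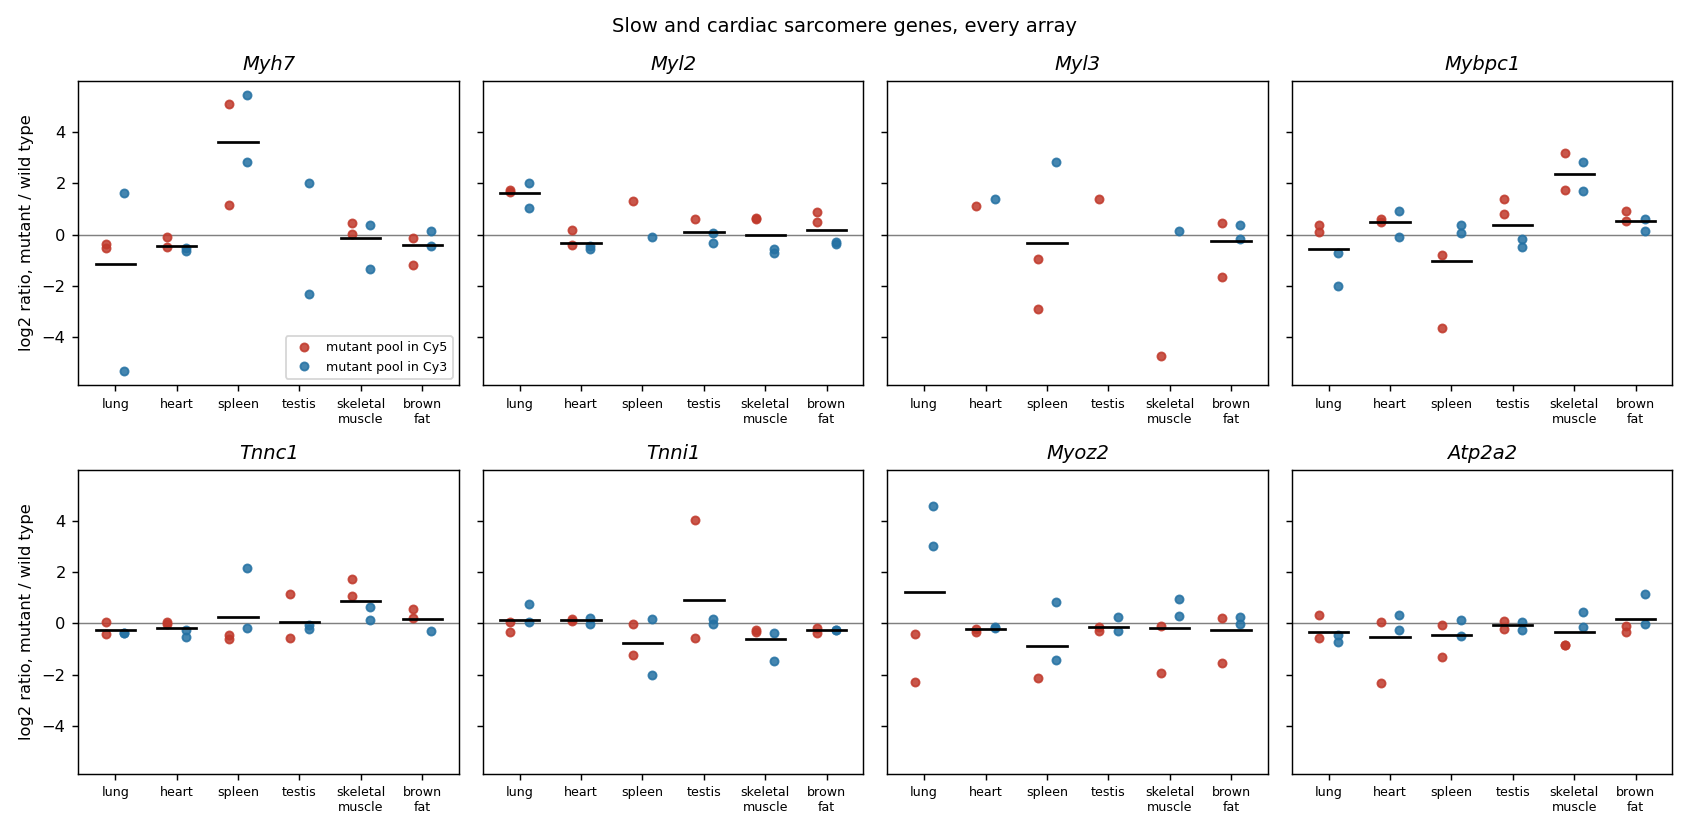
Each panel shows 1 gene, with the log2 ratio of mutant over wild type on the y axis and the organ on the x axis. Points are arrays, red with the mutant pool in Cy5 and blue in Cy3, and black lines are the means of organs with 3 or 4 values. Myh7 lies above 0 on all 4 spleen arrays, Myl2 on all 4 lung arrays and Mybpc1 on all 4 skeletal muscle arrays, while most other organs straddle 0.

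Myl2 encodes the regulatory light chain of ventricular and slow skeletal myosin. In lung its ratios were 1.67 and 1.73 with the mutant pool in Cy5, against 2.00 and 1.03 in Cy3. All 4 were above 1, and the dye orientations overlapped. The mean of 1.61 ± 0.41 (SD, n = 4) is a 3.05-fold higher level in the mutant pool. No heart, testis, skeletal muscle or brown adipose tissue array reached the lowest lung value, and the remaining means were -0.31 ± 0.33 in heart, 0.11 ± 0.47 in testis (3 arrays), -0.01 ± 0.74 in skeletal muscle and 0.18 ± 0.60 in brown adipose tissue, each within the SD of its neighbours. Spleen had 2 values, 1.30 and -0.09. The dye orientations of Myl2 did not overlap in 5 of 6 organs, all but lung. Such a split was found in 49.8% of all pairs of row and organ measured on 3 or 4 arrays. The dye term of Myl2 did not pass the test given below. Skeletal muscle had 0.65 and 0.62 with the mutant pool in Cy5, against -0.58 and -0.71 in Cy3, and brown adipose tissue had 0.87 and 0.50 in Cy5, against -0.35 and -0.30 in Cy3.

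Mouse lung also holds cardiac muscle, in the walls of the pulmonary veins, so other cardiac genes were set beside the Myl2 value. Myl4 and Myl7, the atrial myosin light chains, were at -0.80 ± 0.23 and -0.51 ± 0.29 in lung, below 0 on all 4 arrays, and did not pass the test (limma, adjusted p = 0.319 and 0.788). Actc1, cardiac actin, was at -0.20 ± 0.22. Tnni3, cardiac troponin I, had values on 2 lung arrays, 1.63 and 3.74, and Mybpc3, the cardiac myosin binding protein C, on 2, -0.39 and -0.45. The companions of the slow and cardiac sarcomere measured on 3 or 4 lung arrays all had means below 0, 15 of 15, with a median model ratio of -0.33 and none past the test. Of all lung rows measured on 3 or 4 arrays, 48.9% had a mean above 0. Companions of this list on fewer lung arrays are not in that count. Of these, Tnni3, Des (mean 0.49) and Tnnt2 (0.47, 1 array) lay above 0, and Mybpc3 and Myom2 (mean -0.05) below. Other cardiac lists were mixed in lung. Of the slow and cardiac calcium handling genes 4 had means above 0 and 2 below, among them Slc8a1, the sodium-calcium exchanger, at 0.44 ± 0.02 and above 0 on all 4 arrays, and Casq2, cardiac calsequestrin, at 1.12 ± 1.39 and above 0 on 3 of 4 (limma, adjusted p = 0.999 and 0.768). Of the heart identity and load genes 3 had means above 0 and 6 below, with Nppa, atrial natriuretic peptide, at 1.57 ± 2.63 (3 arrays), Ankrd1 at 0.88 ± 1.32 and Ckm, muscle creatine kinase, at -2.06 ± 0.50, and none passed. Mb, myoglobin, was above 0 on both lung arrays that measured it, with a mean of 1.09. Of the light chains Myl2, Myl4 and Myl7, measured on the same 4 arrays, Myl2 alone lay above 0.

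Myl3, the essential light chain that pairs with Myl2, was measured on 12 of 24 arrays and on none in lung. It was on all 4 arrays in brown adipose tissue only, at -1.67 and 0.43 with the mutant pool in Cy5, against -0.16 and 0.38 in Cy3. In spleen it had -2.89 and -0.97 in Cy5, against 2.84 in Cy3, so the sign turned with the dye. Heart had 1.10 in Cy5 and 1.40 in Cy3, on 1 array each. Skeletal muscle had -4.74 in Cy5 and 0.13 in Cy3. No organ gives a usable mean for this gene except brown adipose tissue, where the mean of -0.25 was smaller than the SD of 0.98.

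Mybpc1 encodes a binding protein of the thick filament typical of slow fibres. It was higher in the mutant pool in skeletal muscle. Averaged over the probes measured on each array, it had 3.17 and 1.75 with the mutant pool in Cy5, against 1.68 and 2.82 in Cy3. Replicate 2 had no value of probe 2607 and replicate 3 none of probe 20019, so 1.75 and 1.68 rest on fewer probes. The spread of the 4 values therefore also holds differences between probes. The mean was 2.35 ± 0.75 (SD, n = 4), a 5.11-fold higher level, and all 4 values were above 1.6. The probes differed in size. Probe 20019 had 4.76, 2.44 and 5.09 on the 3 arrays that measured it, and probe 2607 had 4.19, 3.09 and 3.59 on 3. Probe 2332, measured on all 4, had 0.56 and 1.06 in Cy5, against 0.27 and -0.22 in Cy3, a mean of 0.42 ± 0.53. With this fullest probe alone the ratio was 0.42 in place of 2.35, so the size rests on the other 2 probes. With each array centred and scaled it was 1.40.

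In brown adipose tissue Mybpc1 had a smaller ratio above 0 that all 3 probes shared. The averaged ratios were 0.91 and 0.53 with the mutant pool in Cy5, against 0.12 and 0.61 in Cy3, a mean of 0.54 ± 0.32. All 12 probe values, from 3 probes on the same 4 arrays, were above 0, from 0.02 to 1.09. Of all rows in brown adipose tissue, 15.3% had the same sign on every array. In heart 11 of 12 probe values were above 0 (mean ratio 0.48 ± 0.42), and in skeletal muscle 9 of 10. The counts were 3 of 10 in lung, 3 of 9 in spleen and 5 of 10 in testis. Probe values of the same array are not separate observations. The means ran from skeletal muscle through brown adipose tissue, heart and testis (0.38 ± 0.85) to lung (-0.57 ± 1.06) and spleen (-1.02 ± 1.83), and of these only skeletal muscle differed from its neighbour by more than both SDs.

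**Figure D2:**
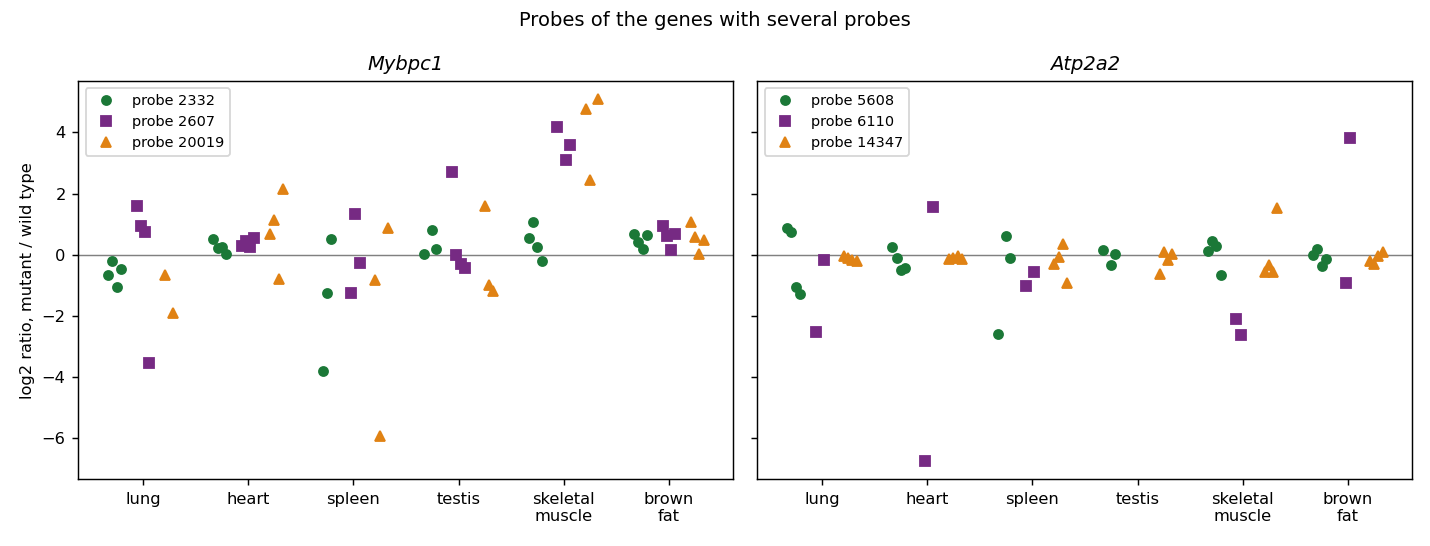
The log2 ratio of mutant over wild type (y axis) is shown for every probe of Mybpc1 and of Atp2a2 in each organ (x axis), with 1 symbol per array. In skeletal muscle probes 2607 and 20019 of Mybpc1 lie between 2.44 and 5.09 and probe 2332 between -0.22 and 1.06. Over all organs probe 6110 of Atp2a2 spans -6.75 to 3.81 while probe 14347 spans -0.92 to 1.52.

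Tnnc1, the calcium-binding troponin C of slow and cardiac muscle, had skeletal muscle ratios of 1.04 and 1.74 with the mutant pool in Cy5, against 0.14 and 0.62 in Cy3. All 4 were above 0, the dye orientations did not overlap, and the mean was 0.88 ± 0.68 (SD, n = 4). In heart (-0.20 ± 0.26) and lung (-0.27 ± 0.22) 3 of 4 arrays were below 0 and the highest value was 0.06. Testis (0.06 ± 0.74) and brown adipose tissue (0.15 ± 0.43, 3 arrays) were mixed. The spleen mean of 0.23 ± 1.29 rests on replicate 4, at 2.15, since the other 3 arrays lay from -0.60 to -0.18.

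Tnni1, the slow inhibitory subunit that holds actin and myosin apart at rest, had the opposite sign in skeletal muscle. Its ratios there were -0.34 and -0.28 with the mutant pool in Cy5, against -0.39 and -1.49 in Cy3, all below 0, with a mean of -0.62 ± 0.58, or -0.34 without replicate 4. The dye orientations did not overlap. Over all rows these muscle arrays had medians of -0.46 and -0.81 in Cy5, against 0.01 and 0.69 in Cy3. Tnnc1 lay above the array median on replicates 1 to 3 and below it on replicate 4. Tnni1 lay above it on the Cy5 arrays and below it on the Cy3 arrays, so its single sign is not kept relative to the array medians. In brown adipose tissue it was below 0 on all 4 arrays as well, at -0.38, -0.17, -0.25 and -0.27, a mean of -0.27 ± 0.09 and a 1.20-fold lower level in the mutant pool. Heart was at 0.11 ± 0.09 and lung at 0.13 ± 0.46. The testis mean of 0.90 ± 2.09 was set by 1 value of 4.002 on replicate 2, and was -0.13 over the other 3 arrays. Spleen stood at -0.78 ± 1.04.

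In skeletal muscle the 7 genes measured on 3 or 4 arrays had 2 means above 0 (Mybpc1 and Tnnc1) and 5 below, with a median of -0.13, against a median of -0.16 over all rows there. In the other organs the members' medians lay between -0.44 (spleen) and 0.09 (testis), against -0.07 and 0.02 over all rows in those organs. Across arrays, after each array was centred, the 28 pairs of members correlated at a median Pearson r of 0.00, from -0.71 to 0.55, over 11 to 24 arrays that share organs and dyes. The genes whose centred ratios were most like the mean of the members were Polr2i (r = 0.79 over 22 arrays), Map2k5 (0.75 over 24), Unc45b (0.68 over 24), B4galt1 (0.65 over 24) and Prpf6 (0.65 over 23), of 5101 genes compared. These are the highest r values of the 5101, whose 99th percentile was 0.562, and they were not tested. The mean they follow averages members that showed little correlation with each other.

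Myoz2, a calsarcin that anchors calcineurin at the Z-disc of slow and cardiac muscle, was split by dye in 4 of 6 organs. So were 49.8% of all pairs of row and organ measured on 3 or 4 arrays, and the dye term of Myoz2 did not pass the test given below. In lung Myoz2 had -2.27 and -0.44 with the mutant pool in Cy5, against 2.997 and 4.57 in Cy3. In skeletal muscle it had -0.09 and -1.94 in Cy5, against 0.94 and 0.29 in Cy3. Relative to the medians of the muscle arrays given above, it lay higher on replicates 1 and 3 and lower on replicates 2 and 4, so this split is not kept there. In testis and brown adipose tissue the dye orientations of Myoz2 overlapped. The Cy5 mean was below the Cy3 mean in all 6 organs, and its organ means ran from -0.90 ± 1.54 in spleen to 1.21 ± 3.13 in lung. Heart was the exception in spread, with -0.36, -0.21, -0.14 and -0.18, all below 0 and a mean of -0.22 ± 0.10.

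Atp2a2 encodes SERCA2, which pumps calcium back into the sarcoplasmic reticulum of slow and cardiac muscle and is also found in other cells. Its fullest probe, 14347, was measured on all 24 arrays and ranged from -0.92 to 1.52, with a median of -0.13. In heart this probe had -0.13, -0.12, -0.04 and -0.13, a mean of -0.11 ± 0.04. Probe 5608 followed the dye in lung, at 0.89 and 0.74 with the mutant pool in Cy5, against -1.04 and -1.28 in Cy3. Probe 6110 was measured on 10 arrays and ranged from -6.75 to 3.81. The heart mean of the 3 probes, -0.55 ± 1.21, was set by 1 value of probe 6110 on replicate 2, and no organ mean of Atp2a2 exceeded its SD.

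The dye orientation was tested for each gene in the same limma model over 24 arrays, as the difference between the orientations, Cy5 minus Cy3. Of 76 members and companion genes measured on at least 20 arrays none passed, where 0.268% of all rows passed the adjusted threshold. An unadjusted p under 0.05 (limma) was found for 13, among them 2 of the 7 members. The share of all rows under that unadjusted threshold is not given here, so these counts have no background beside them. Myl2 had a Cy5 minus Cy3 term of 0.78 ± 0.22 (SE; limma, adjusted p = 0.165), positive in all 6 organs. Myoz2 had -1.61 ± 0.52 (adjusted p = 0.211), negative in all 6. The other 5 members tested had adjusted p-values from 0.493 to 0.946. The dye orientations did not overlap in 21 of the 42 pairs of member and organ (50%), against 49.8% of all pairs of row and organ, so members were split by dye about as often as any row.

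**Figure D3:**
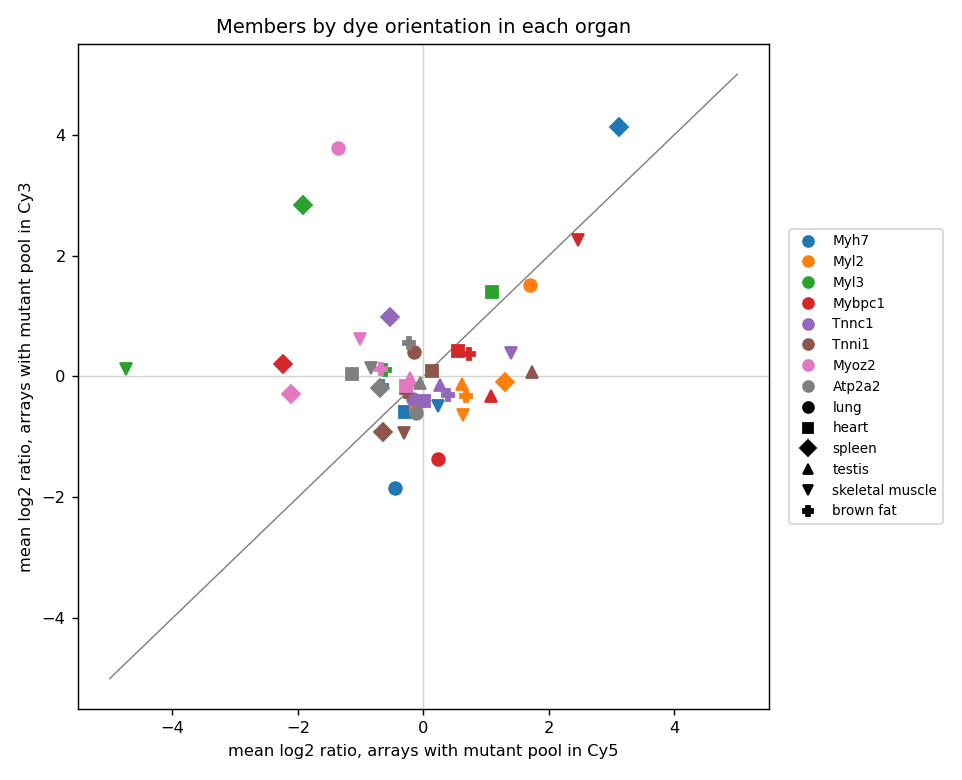
Each symbol is 1 gene in 1 organ, with the mean log2 ratio over Cy5 arrays (mutant pool in Cy5) on the x axis and over Cy3 arrays on the y axis, and the diagonal marks equal values. Myh7 in spleen, Mybpc1 in skeletal muscle and Myl2 in lung lie near the diagonal at the upper right, and Myoz2 in lung and Myl3 in spleen lie in the upper left, where the sign turns with the dye.

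Each slow or cardiac gene was then set beside the fast isoform of the same protein on the same arrays. In lung the slow gene had the higher mean in 4 of 6 isoform pairs, with a median difference of 1.63. Tnni1 minus Tnni2, slow and fast troponin I, was 2.12 ± 0.59 (SD, n = 4), above 0 on all 4 arrays, where Tnni1 averaged 0.13 and Tnni2 -1.99. Tnnc1 minus Tnnc2, slow and fast troponin C, was 3.18 ± 2.44 and above 0 on all 4, where Tnnc1 averaged -0.27 and Tnnc2 -3.46. Replicate 2 gave 6.81 of this difference, and without it the mean of the other 3 arrays was 1.98. Atp2a2 minus Atp2a1, the calcium pump of fast fibres, was 1.15 ± 1.47 in lung and above 0 on 3 of 4 arrays. Of the 13 fast genes with a probe 12 were tested in lung, with a median of -1.41. Tnnc2, Tnni2 and Myoz1, the fast calsarcin, fell (limma, adjusted p = 0.012, 0.017 and 0.00395), each on all 4 arrays, where 0.0728% of all rows fell. With each array centred on its median Tnnc2 passed (adjusted p = 0.038) and Tnni2 and Myoz1 did not (adjusted p = 0.0591 for both). Mylpf, the fast counterpart of Myl2, was above 0 on all 3 lung arrays that measured it (mean 2.24 ± 1.70) and did not pass (limma, adjusted p = 0.211).

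In brown adipose tissue the order of slow and fast was the other way round. The slow gene had the lower mean in 7 of 8 isoform pairs, with a median difference of -0.73. In 5 of the 8 it was lower on every array that measured both. Differences of 1 sign on every array, in either direction, were found in 2 of 6 pairs in lung and 2 of 8 in heart. They were found in 2 of 8 in skeletal muscle, 1 of 6 in testis and 2 of 7 in spleen. The pairs share the same arrays, and the share among pairs of other rows was not counted. Myh7 minus Myh4 was -1.04 ± 0.45 (n = 4), where Myh7 averaged -0.41 and Myh4, a fast myosin heavy chain, 0.63. Tnni1 minus Tnni2 was -0.81 ± 0.41, where Tnni1 averaged -0.27 and Tnni2 0.54. The 13 fast genes had a median of 0.54 there and none passed the test (limma). In skeletal muscle slow was above fast on all 4 arrays for Tnnc1 minus Tnnc2 (1.52 ± 0.47) and Mybpc1 minus Mybpc2 (2.25 ± 0.92), while Tnni1 minus Tnni2 was -0.04 ± 0.31, and the slow gene had the lower mean in 5 of 8 pairs. In heart it was lower in 7 of 8, with a median difference of -0.22. These differences use the members' own ratios and carry no test.

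**Figure D4:**
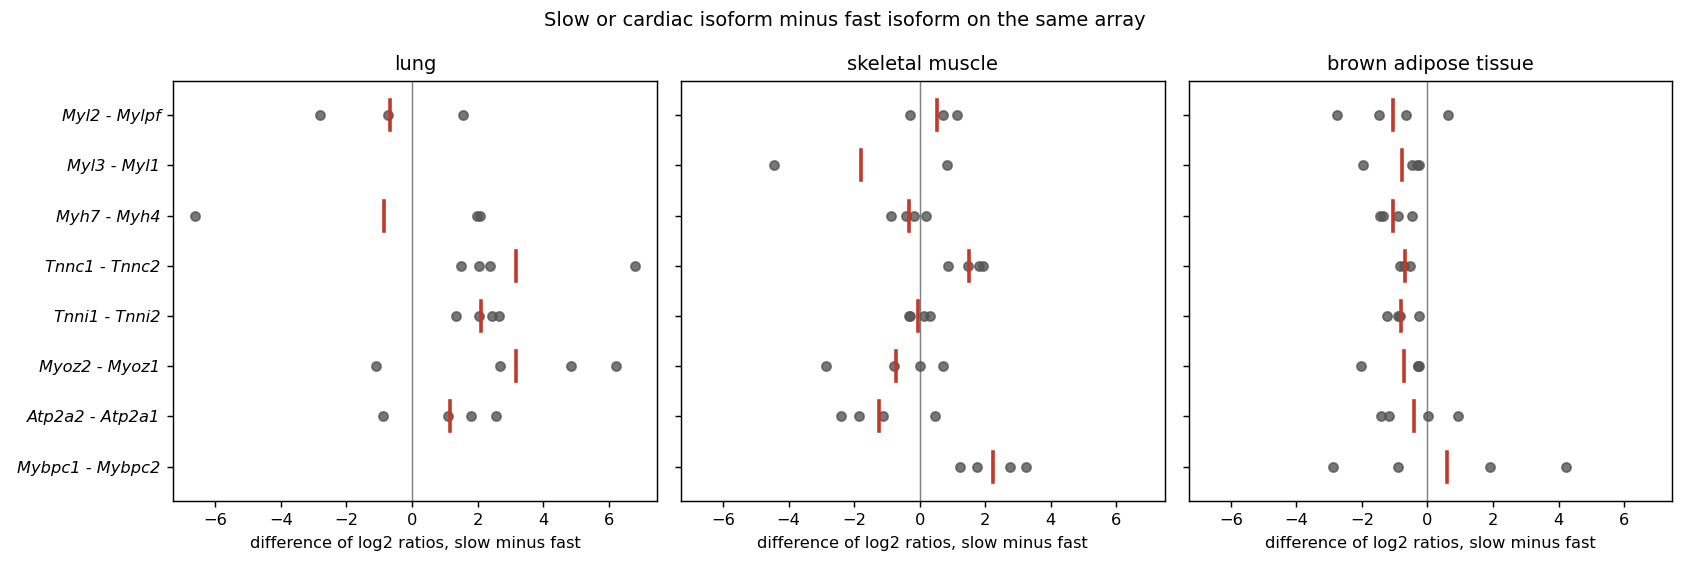
The x axis is the log2 ratio of the slow or cardiac gene minus that of its fast counterpart on the same array, in lung, skeletal muscle and brown adipose tissue, and each row is 1 isoform pair. Grey points are arrays and red bars are means, and the troponin pairs lie to the right of 0 in lung and to the left of 0 in brown adipose tissue.

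On 1 heart array, replicate 2, the label of the wild-type RNA names skeletal muscle. There Myl7, an atrial light chain, was at -0.09, Actc1 at 0.12 and Mybpc3 at -0.10. The companions of the cardiac sarcomere had a median of 0.02 and the fast genes of -0.05, a difference of 0.07, against -0.36, -0.04 and -0.04 on replicates 1, 3 and 4. Myh7 at -0.12 and Myl2 at 0.17 were each the highest of the 4 heart values. Over the other 3 heart arrays the mean of Atp2a2 was 0.04 in place of -0.55, and that of Myoz2 was -0.23 in place of -0.22.

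**Figure D5:**
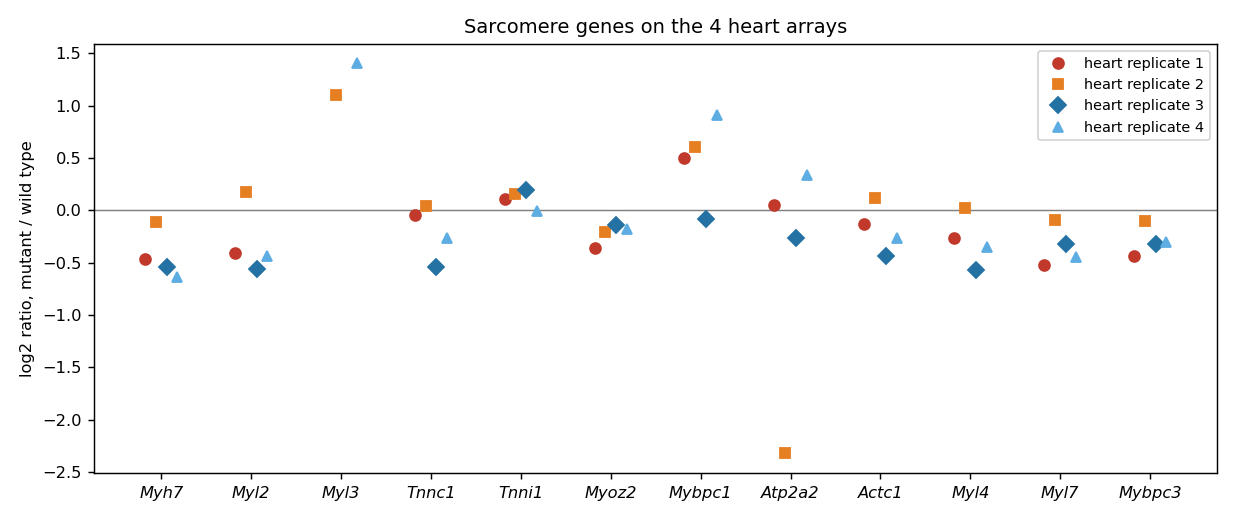
The log2 ratio of mutant over wild type (y axis) is shown on the 4 heart arrays for the 8 members and 4 other cardiac genes (x axis). Replicate 2 (orange) is the highest for Myh7, Myl2, Tnnc1, Actc1, Myl4, Myl7 and Mybpc3, between -0.12 and 0.17, and the lowest for Atp2a2 at -2.32.

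Genes of the same muscles outside the list were tested in the same fit. Of 147 companion genes in 11 lists, 99 had a probe, and 10 of 517 pairs of gene and organ passed (1.93%), 4 higher and 6 lower, against 1.09% of all pairs of row and organ. After centring each array the split was 3 higher and 2 lower, and after scaling as well 0 higher and 4 lower.

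In skeletal muscle 5 of 86 companions passed (5.81%, against 5.58% of all rows). Ttn, the giant spring protein titin, rose on all 4 arrays, at 0.51 and 1.93 with the mutant pool in Cy5, against 1.69 and 1.98 in Cy3 (limma, model ratio 1.53 ± 0.29 SE, adjusted p = 0.00331). Jph2, a junctophilin that couples the surface membrane to the calcium store, rose on all 4 as well, at 1.62 and 1.53 in Cy5, against 2.31 and 1.01 in Cy3 (1.62 ± 0.27, adjusted p = 0.000871, and 0.00846 with array weights). Tpm3, slow tropomyosin, fell on 3 of 3 arrays, at -1.64 and -2.06 in Cy5, against -3.69 in Cy3 (-2.54 ± 0.57, adjusted p = 0.0144). Rcan1, the calcineurin inhibitor among the slow fibre regulators, fell on 3 of 3 (-1.61 ± 0.42, adjusted p = 0.0326). Cidea, a marker of brown fat cells, rose on 3 of 3 (1.84 ± 0.45, adjusted p = 0.0204), 1 of 6 brown fat markers tested there, whose median was 0.42. Of these 6 markers 4 had means above 0 and 2 below, with Dio2 at -0.94 ± 1.19 (3 arrays). Ucp1, also on that list, had values on 2 muscle arrays only, -2.86 and -2.64, and is not among the 6. What part fat cells have in the members' muscle ratios was not tested.

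Array weights or centring with scaling ended most of these calls. Centring alone ended the call of Rcan1 (adjusted p = 0.161). With array weights Ttn (adjusted p = 0.0777), Tpm3 (0.202) and Rcan1 (0.35) did not pass, and after centring and scaling none of the 5 did, with adjusted p-values from 0.108 to 0.814. In spleen Tnni2 fell (-1.78 ± 0.39, adjusted p = 0.0256) and Cidea rose (1.56 ± 0.39, adjusted p = 0.0499), and neither passed with array weights or with arrays centred (adjusted p = 0.0535 and 0.0609). In heart, testis and brown adipose tissue no companion passed (limma). An unadjusted p under 0.05 (limma) was found there for 4 of 91, 4 of 87 and 1 of 94 companions. Of all rows it was found for 284 of 13844, 491 of 13564 and 102 of 15223. No companion of the slow and cardiac sarcomere passed in spleen beside Myh7, where the median of 17 tested genes was -0.52.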

How the data were processed

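Labelled cDNA was made from 20 µg of total RNA with Cy3 or Cy5, per the labels' protocols. The authors deposited 1 log ratio per probe and array. Its base is not stated with the deposited values and was taken as log2 from their range, and its direction was taken as mutant over wild type, with Nr4a1 below 0 in both dye orientations. Not given in the sources used here: centring, scaling, background correction, software and why cells are empty. Values with a size above 12, 4874 of 392774, form a separate mode from 15.70 upward and were treated as not measured.

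Probes with the same single symbol in GEO's platform annotation were averaged (13891 of 20205 probes have 1 symbol, 5 several and 6309 none). RefSeq changed no symbol. Testing a row in an organ required values on at least 3 of its 4 arrays, covering both dyes. limma 3.58.1 in R 4.3.3 fitted 6 organ coefficients and 1 dye term over 24 arrays, with Benjamini-Hochberg adjustment over all rows of an organ and a threshold of 0.05. Dye terms were adjusted over rows measured on at least 20 arrays. The fit was tested on simulated data.

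The members, lists and tests were chosen with earlier results of these data known. The text names all members, the fast counterpart of each member, companions past the test (at most 4 of a list in an organ), Nr4a1, and the 5 genes most correlated with the members' mean among those measured on at least 22 arrays. The other cardiac genes set beside Myl2 in lung and on the heart arrays were chosen after their values were seen. Alternatives covered centring, scaling, dye terms, array weights, the separate mode, separate fits, complete rows, single probes, the sign of the Cy3 arrays, heart replicate 2, the replicate number and each replicate. Plain means without 1 array were added after the data were seen.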

Additional observations from a re-analysis of the deposited data

Results flagged for a closer look

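Of 78 groups of 4 arrays, over the members and their fast counterparts, 7 held a value far from the other 3 by Dixon's test, and chance gives about 1 in 20. Tnnc1 in lung was at 0.062 on replicate 2, against -0.40 to -0.37 on the others, and in spleen at 2.15 on replicate 4, against -0.60 to -0.18. Tnni1 in testis was at 4.002 on replicate 2, against -0.56 to 0.18, and in skeletal muscle at -1.49 on replicate 4, against -0.39 to -0.28. Myoz2 in brown adipose tissue was at -1.56 on replicate 2, against -0.01 to 0.26. Among the fast genes, Tnnc2 in lung was at -6.74 on replicate 2, against -2.74 to -1.91, and Myoz1 in testis at -0.67 on replicate 2, against 0.02 to 0.15.

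Some genes had 1 sign on all 4 arrays of an organ and the opposite sign on all 4 of another, and these differences were not tested. How many of all rows show such a reversal was not counted, so the differences have no background beside them. Of all pairs of row and organ measured on 3 or 4 arrays, 17.7% had 1 sign on every array. Myh7 differed by -4.06 in heart minus spleen (-0.44 and 3.62). For Tnnc2, lung minus brown adipose tissue was -4.10 and skeletal muscle minus brown adipose tissue -1.28. For Myoz1, lung minus spleen was -2.26 and lung minus brown adipose tissue -2.39. For Tnnt3, fast troponin T, lung minus brown adipose tissue was -2.28. For Myl1, the fast essential light chain, testis minus skeletal muscle was 1.76 and skeletal muscle minus brown adipose tissue -1.09. For Myh4, heart minus brown adipose tissue was -0.90. Relative to the medians of the skeletal muscle arrays, Tnnc2 lay above on the Cy5 arrays and below on the Cy3 arrays. Myl1 lay above the median on replicate 2 and below it on the others. The single sign of these genes in skeletal muscle is therefore not kept relative to the array medians.

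Myh7 had a value of 17.13 on replicate 1 of testis, outside the measured range. It is the highest value of that array, shared by 167 probes, which are all 167 of its values in the separate mode.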

How the results depend on the processing

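The count of companion pairs past the test was 10. It was 5 with arrays centred, 4 with arrays centred and scaled, 0 with each organ fitted alone (limma, where 45 pairs had an unadjusted p below 0.05 in those separate fits), 17 with each probe a row of its own and 6 with the sign of the Cy3 arrays turned, none of the 6 among the 10. The 45 unadjusted pairs of the separate fits have no share of all rows beside them. Leaving out each replicate number in turn gave 2 to 6 pairs, and array weights gave 7, 5 of them among the 10. With the Cy3 sign turned, Tnni2 in lung stood at 0.16, and in skeletal muscle Tpm3 at 0.0792, Ttn at -0.31, Jph2 at -0.0413 and Rcan1 at 0.46. The cause of the other changes was not tested. Dye terms past the test numbered 0, but 2 with arrays centred and scaled (Ppargc1a and Plin1) and 1 with array weights (Mybpc2). With the replicate number as a block in place of the dye term, 7 pairs passed. The numbers do not pair the arrays: across organs, deviations of arrays sharing a number had a median correlation of 0.04, other numbers with the same dye also at 0.04, and 9 of 24 arrays correlated best with their own number. Centring moved the median of all rows by over 0.1 in skeletal muscle only, where it is -0.16. Among the 42 member ratios, centring changed 2 signs and moved none by more than its SD. Turning the Cy3 sign changed 18 signs and moved 15, and it gave -0.51 for Myh7 in spleen, 0.09 for Myl2 in lung and 0.10 for Mybpc1 in skeletal muscle. Leaving out a replicate number changed from 1 to 7 signs. Without heart replicate 2 no sign of a model ratio changed, while the plain heart mean of Atp2a2 went from -0.55 to 0.04. Myh7 in spleen ranged from 3.04 to 4.52, Myl2 in lung from 1.34 to 1.71 and Mybpc1 in skeletal muscle from 2.05 to 2.66 without each replicate number. Empty cells limit Myl3 and testis Myh7.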
